A study of Mus musculus with 14 samples.

Results

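Transmitter release at synapses is carried out by a set of proteins encoded in the mouse by the families of SNAREs, SNARE-binding proteins, synaptotagmins, active-zone scaffolds and synaptic vesicle proteins. The genes described here were chosen by symbol alone: syntaxins (Stx), Vamp and Snap genes, Stxbp genes, complexins (Cplx), synaptotagmins (Syt), Unc13, Rims, Bsn, Pclo, Sv2, synapsins (Syn), Rab3, synaptogyrins (Syngr), Syp and Synpr. They came to 79 of 23523 gene entries, with 1 entry kept per symbol. The symbol pattern also takes in genes that act elsewhere in the cell, such as the Golgi and endosomal syntaxins, and Snap91, which encodes a clathrin adaptor and is no SNARE. Messenger RNA was measured in 13 libraries. Motoneurons were sorted by green fluorescence from dissociated spinal cords of Hb9::gfp embryos at embryonic stage E12.5, in which the Hb9 (Mnx1) promoter drives the reporter. They gave 6 wild-type (WT) libraries and 2 libraries of genotype 218DKO, which lacks both genes of the microRNA miR-218. V1, V2a and V3 interneurons, 1 library each, were sorted at the same stage from wild-type embryos by tdTomato switched on in Rosa26:LSL:tdTomato by En1:cre, Chx10:cre and Sim1:cre, which also marks every descendant of a cell that once made the Cre. Cultured mouse embryonic stem (mES) cells, taken on day 4 of a differentiation with retinoic acid and a sonic hedgehog agonist, gave 1 library of tdTomato-sorted cells with Olig2:cre and Rosa26:LSL:tdTomato (pMN, motoneuron progenitors) and 1 of unsorted neural progenitors (NP). Nothing in the labels ties replicates to separate embryos, so p-values measure the spread between these samples, which may be technical.

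A synaptic vesicle fuses when Vamp2 on its membrane zips together with a syntaxin and Snap25 on the plasma membrane. Munc13 (Unc13) guides this assembly, complexin holds it in readiness, and synaptotagmins trigger it when calcium enters. RIM, Bassoon and Piccolo build the active zone where vesicles dock, while Rab3, synapsins, SV2 and the tetraspan proteins sit on the vesicle itself. Motoneurons are the spinal cells that send axons out to muscle, where the neuromuscular junction depends on fast, synchronous release. MicroRNAs such as miR-218, which is abundant in motoneurons, pair through their seed (bases 2 to 8) with sites in messenger RNA 3′ UTRs and lower the amount of message or protein.

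Values are a length-scaled signal per gene, which the authors had scaled between libraries, so levels can be set side by side between genes and between libraries. Approximate depth ranged from 7410000 reads (DKO replicate 1; replicate 2 had 15400000) to 28400000 (the deepest WT library), and 3 reads in a transcript of 2000 bases corresponded to a signal between 0.988 and 3.94. The 7 motoneuron markers summed to at least 9472 in every motoneuron library and at most 1638 in the others. In V2a, Chat was 308.8 and Slc18a3 1202, beside 339.2 to 499.8 and 1658 to 2720 in WT motoneurons. The other motoneuron markers were at most 74.11 in V2a. Prph was 448.0 and 459.1 in DKO and 4826 to 7874 in WT motoneurons. Some differences between libraries were found within the WT group. The signal of Rn45s (precursor of ribosomal RNA) was 10200 to 27940 in WT replicates 2, 3 and 4 and 644.2 to 4275 in WT replicates 1, 5 and 6. It was 1647 and 1112 in DKO, 1844, 2160 and 1841 in V1, V2a and V3, and 1701 and 2220 in pMN and NP. The libraries with high Rn45s were thus all WT. Of 73 release genes with a WT mean of at least 1, 18 did not overlap between these sets of 3 libraries (24.7%, against 29.4% of all genes). Of the 18, 9 were higher in replicates 2, 3 and 4, among them Snap25, Vamp2, Syn1, Syt11, Syt17 and Snap91, and 9 in replicates 1, 5 and 6, among them Syt13, Stxbp5, Snap23, Stx4a, Stx5a, Stxbp2 and Stxbp6. Summed mesenchyme markers were 47.87 to 195.5 in WT replicates 1, 5 and 6, 4.323 to 9.544 in replicates 2, 3 and 4, and 3.468 and 3.295 in DKO. Summed microglia markers were 123.4 in WT replicate 1 and 2.251 to 26.69 in the other WT libraries. Their part in the results was not tested. Summed cycling-cell markers were 110.5 to 200.2 in WT motoneurons, 57.04 and 53.09 in DKO, 78.52, 512.0 and 1200 in V1, V2a and V3, and 10050 and 8883 in pMN and NP. Because these are bulk samples, fewer cells of a type and less RNA per cell cannot be told apart.

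The release genes took a larger share of the signal in neurons than in progenitors. Together they made up 0.638% to 0.681% of the total signal in the 6 WT motoneuron libraries, 0.673% and 0.711% in the DKO libraries, 0.607%, 0.546% and 0.470% in V1, V2a and V3, and 0.0913% and 0.141% in pMN and NP. In WT motoneurons 15 of the 79 had a mean signal of at least 1000, 39 lay between 100 and 1000, 15 between 10 and 100, and 10 below 10. In progenitors 1 gene reached 1000 and 20 lay below 10. Over the 6 WT libraries the 69 genes with a mean of at least 10 had a median coefficient of variation of 15.65%, from 5.477% for Syt7 to 43.89% for Stxbp6.

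**Figure D1:**
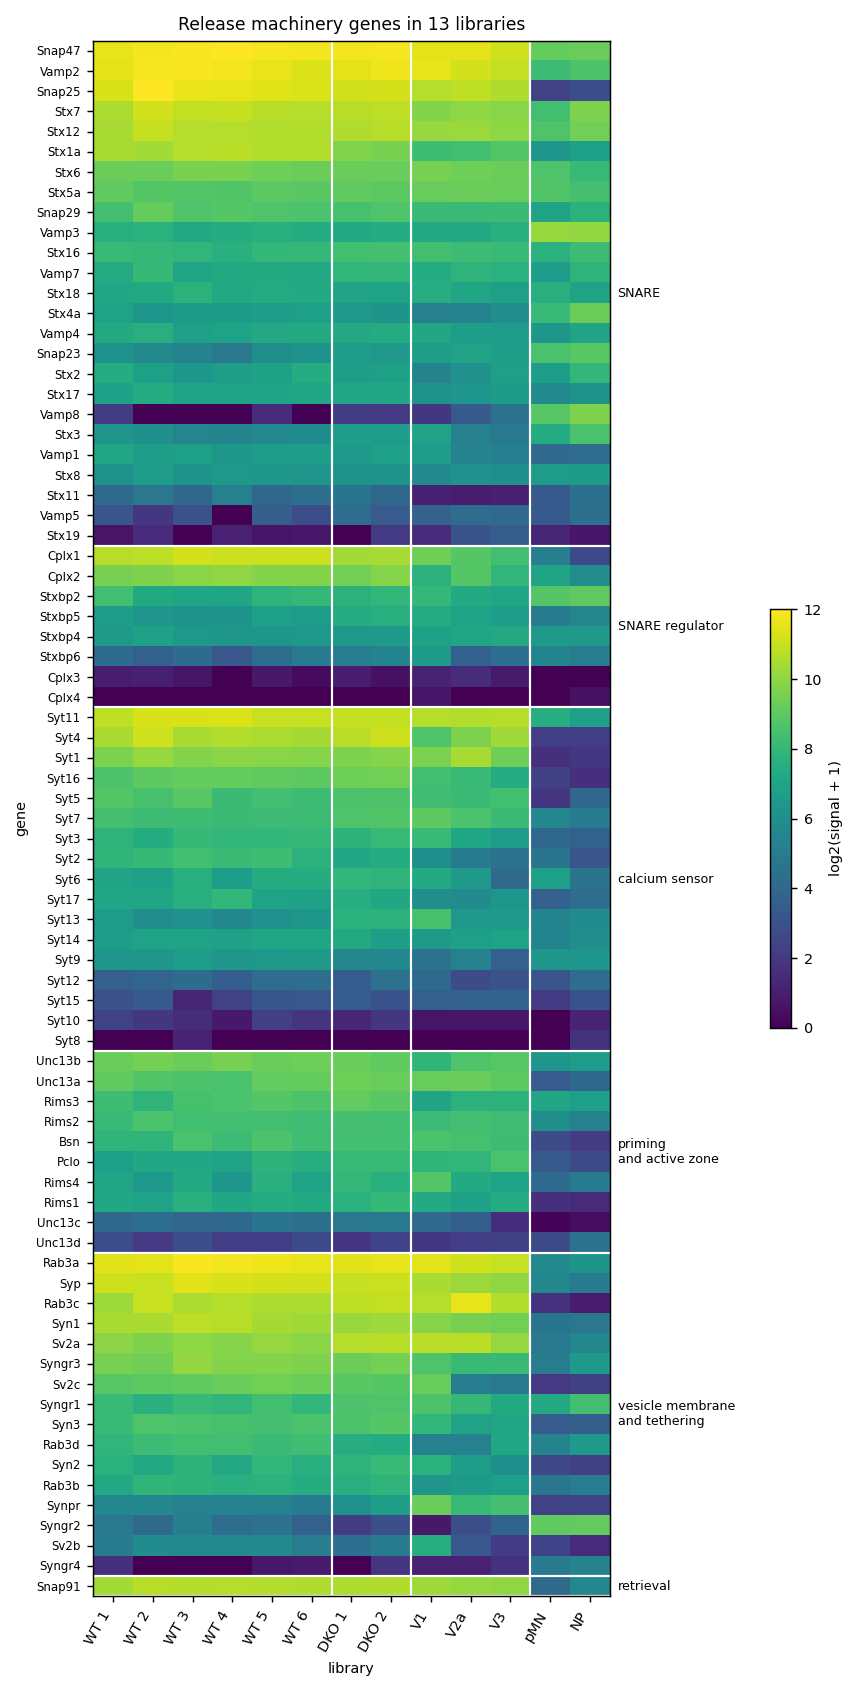
Signal of 77 release machinery genes (rows, by role and then by mean) in 13 libraries (columns), as log2(signal + 1), with colour from dark (0) to yellow (high). White lines separate roles and groups of libraries. The 2 progenitor columns (pMN, NP) are darker for most rows, except for Vamp3, Vamp8, Snap23, Stx3, Stx4a, Syngr2 and a few others, which are brighter there.

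The most abundant genes differed by role. Snap47, a relative of Snap25, was the highest of the 26 SNARE genes, with 3107 at its lowest, 3602 at its median and 4020 at its highest over the WT libraries. Syt11, a synaptotagmin that does not sense calcium, led the 17 synaptotagmins with 1850, a median of 2271 and 2638. The 10 priming and active-zone genes had lower signals, the highest being Unc13b (Munc13-2) at 607.8, a median of 637.0 and 736.4. Rab3a, the vesicle GTPase that binds RIM, led the 16 vesicle genes at 2862, a median of 3170 and 3826. Snap91, the adaptor AP180 that recruits clathrin to retrieve vesicles, ranged from 1303 through 1563 to 1709.

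DKO motoneurons were set against WT motoneurons to see which of these messages change without miR-218. Among the SNAREs of vesicle fusion Stx1a fell, while Snap25 and Vamp2 did not pass the test. By role, 2 of 25 SNAREs tested passed, 2 of 7 SNARE regulators and 4 of 16 synaptotagmins. So did 1 of 10 priming and active-zone genes and 5 of 15 vesicle genes. Of 79 genes, 74 had a mean signal of at least 1 and were tested. With limma and an adjusted p threshold of 0.05, 8 were higher in DKO, 6 were lower and 60 did not pass. Among all 16260 genes tested, 3.22% (523) were higher and 4.77% (776) lower, a split that became 656 and 598 when libraries were scaled to their total signal, which moved the median of all genes to 0.09. The higher genes were Syt13, Synpr, Stxbp5, Pclo, Stx3, Sv2a, Syngr1 and Syt7, and the lower ones Syngr2, Stx1a, Syt9, Rab3d, Syt2 and Cplx1. The median difference of the 74 was 0.07 on the log2 scale, against 0.00 over all genes. The signals of the WT and DKO libraries did not overlap for 29 of the 74, and for 30.7% of all genes tested.

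**Figure D2:**
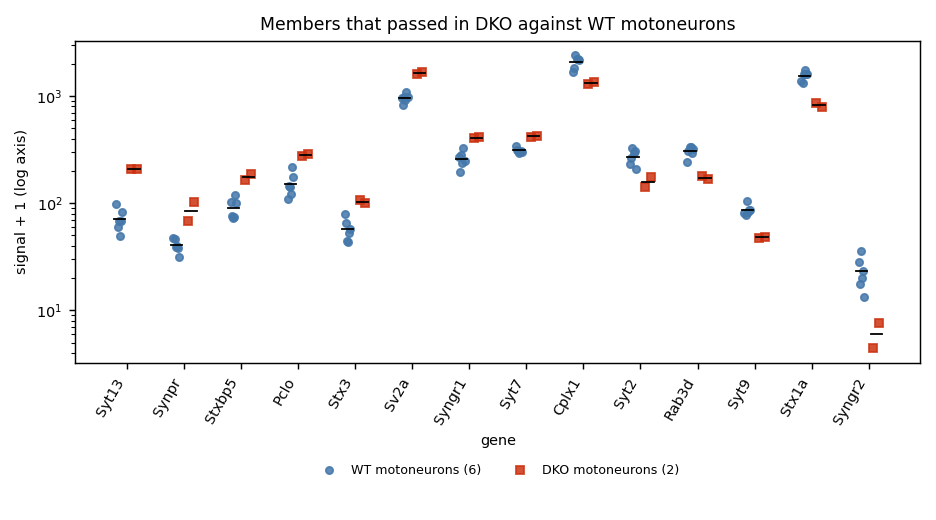
Signal + 1 (log axis) of the 14 genes that passed in DKO against WT motoneurons, with 1 point per library (circles, 6 WT; squares, 2 DKO) and a bar at each mean. Genes run from the highest to the lowest log2 difference, and the WT and DKO points do not overlap for any of the 14.

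Among SNAREs, Stx1a and Stx3 moved in opposite directions. Stx1a, the plasma membrane syntaxin of neuronal exocytosis, stood at 1310 at its lowest, 1594 at its median and 1742 at its highest in WT libraries and at 855.0 and 781.8 in DKO libraries. Both DKO values lay well below every WT value, a fall from 1538 ± 163.5 (SD, n = 6) to 818.4 ± 51.75 (n = 2), by 0.90 on the log2 scale (limma, SE 0.12, adjusted p = 0.00281). Stx3, a plasma membrane syntaxin known from ribbon synapses and epithelia, ranged from 41.97 through 54.12 to 77.98 in WT and was 104.9 and 100.1 in DKO (log2 0.89, SE 0.23, limma adjusted p = 0.0421). The other 23 SNARE genes tested did not pass. For Snap25 the difference was -0.36 (95% interval -0.74 to 0.01), for Vamp2 -0.07 (-0.39 to 0.26) and for Snap47 0.00 (-0.25 to 0.25), intervals that leave room for changes of up to about those sizes. Snap25 was 2225 and 2433 in DKO, both below its lowest WT value of 2512. Vamp2 was 2938 and 3290, within its WT range of 2641 to 3745.

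Among SNARE regulators, complexin 1 and tomosyn changed. Cplx1, which clamps and primes the assembled SNAREs, ranged from 1666 through 2173 to 2392 in WT and was 1280 and 1362 in DKO, so that no DKO value reached the lowest WT value. It fell by 0.64 on the log2 scale (SE 0.14, limma adjusted p = 0.0208). Its paralog Cplx2 ranged from 756.7 through 878.3 to 1022 in WT, with 689.5 and 903.0 in DKO, and did not pass (log2 -0.15, 95% interval -0.45 to 0.14). Stxbp5 encodes tomosyn, which binds syntaxin and Snap25 in place of Vamp2 and so restrains release. Its signal ranged from 71.39 through 87.43 to 117.4 in WT and was 164.1 and 187.7 in DKO, a rise of 0.98 (SE 0.21, limma adjusted p = 0.019).

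The synaptotagmins gave the largest rise. Syt13, an atypical family member whose C2 domains lack the residues that bind calcium, ranged from 48.31 through 66.88 to 96.82 in WT and was 205.4 and 209.2 in DKO. Both DKO values were above 2 times the highest WT value. Its mean rose from 69.88 ± 17.12 (n = 6) to 207.3 ± 2.667 (n = 2), or 2.966-fold (log2 1.59, SE 0.23, limma adjusted p = 0.00363). Syt7, a slow calcium sensor with high affinity, was the least variable gene in WT, ranging from 292.2 through 304.4 to 341.5, and stood at 413.6 and 425.2 in DKO (log2 0.44, SE 0.10, limma adjusted p = 0.0274). Syt2 and Syt9 are fast sensors for synchronous release, and Syt2 is the main one at mature neuromuscular junctions. Syt2 ranged from 206.9 through 276.3 to 326.5 in WT and was 141.2 and 173.4 in DKO, a fall of 0.77 on the log2 scale (SE 0.18, limma adjusted p = 0.0281). Syt9 ranged from 76.39 through 83.52 to 103.7 and was 46.54 and 47.80, falling by 0.84 (SE 0.16, limma adjusted p = 0.0137). Syt1, the sensor of the same kind with the highest signal, had 821.7 and 913.8 in DKO within its WT range of 808.6 to 1121 and did not pass (log2 -0.10, 95% interval -0.38 to 0.17). The other 11 synaptotagmins tested did not pass.

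Of the 10 priming and active-zone genes, Pclo passed and the other 9 did not. Pclo encodes Piccolo, a giant scaffold that with Bassoon organises the active zone. It ranged from 109.4 through 142.7 to 214.2 in WT and was 274.2 and 283.6 in DKO, above every WT library (log2 0.92, SE 0.22, limma adjusted p = 0.0316). Bsn, for Bassoon, was 336.1 and 340.9 within a WT range of 222.1 to 395.8 (log2 0.17, 95% interval -0.30 to 0.65). The median difference of the 10 genes was 0.49 and 8 were positive, but each of the 9 had an adjusted p above 0.05. Rims1, which has a second, lower entry in the table, so that its reads may be split, was 204.6 and 261.8 in DKO and at most 197.4 in WT (log2 0.57, SE 0.18, limma adjusted p = 0.0714).

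The vesicle proteins changed in both directions. Sv2a, a membrane glycoprotein of nearly all synaptic vesicles and the binding site of the drug levetiracetam, ranged from 831.1 through 965.8 to 1089 in WT and was 1609 and 1657 in DKO. It rose from 959.5 ± 84.49 (n = 6) to 1633 ± 34.01 (n = 2), or 1.702-fold (log2 0.77, SE 0.11, limma adjusted p = 0.00341). Its paralog Sv2c was 485.2 and 454.8 within or just below a WT range of 466.7 to 707.6 and did not pass (log2 -0.29, 95% interval -0.63 to 0.04). Sv2a was 58.12% to 65.87% of the summed Sv2 signal in WT and 76.11% and 77.35% in DKO, a share chosen after its values were seen.

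Synaptoporin (Synpr) and synaptogyrins are tetraspan proteins of the vesicle membrane related to synaptophysin. Synpr ranged from 30.29 through 38.59 to 46.78 in WT and was 66.84 and 101.8 in DKO, a rise of 1.06 with the DKO libraries themselves far apart (SE 0.23, limma adjusted p = 0.0205). Syngr1 ranged from 193.0 through 258.6 to 325.5 and was 402.6 and 412.4 (log2 0.67, SE 0.17, limma adjusted p = 0.0363). Syngr2, the form found mostly outside neurons, was low and fell further. It ranged from 12.34 through 20.76 to 34.94 in WT and was 3.427 and 6.558 in DKO, by 1.93 on the log2 scale (SE 0.39, limma adjusted p = 0.0153), and the DKO values are close to the signal of a few reads. Syngr3, the most abundant of the 3 in motoneurons, did not pass (log2 -0.31, 95% interval -0.66 to 0.03). Rab3d, a Rab3 form best known from secretory granules, ranged from 241.3 through 312.0 to 334.2 and was 177.0 and 165.4, a fall of 0.81 (SE 0.14, limma adjusted p = 0.00792). Rab3a, Rab3b and Rab3c did not pass, with differences of -0.15, 0.09 and 0.31. Syp, the classical vesicle marker synaptophysin, was 1960 and 2141 against 2062 to 2806 and did not pass (log2 -0.21, 95% interval -0.49 to 0.06).

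These calls rest on 2 DKO libraries. With DKO replicate 1 left out, 1 of the 14 calls remained (Stx1a), and with DKO replicate 2 left out none did (0 calls in either direction with limma, 17 of the 74 at an unadjusted p under 0.05), although the direction held for all 14. With WT replicates 2, 3 and 4 alone all 14 remained, and with WT replicates 1, 5 and 6 alone 12 remained, without Pclo (adjusted p = 0.0775) and Syt2 (0.0573). Single WT libraries also decided weaker calls. Stx3 lost its call without any of WT replicates 3, 4, 5 or 6 (limma adjusted p between 0.0638 and 0.0682), Syt7 without replicate 4, 5 or 6 (0.0514 to 0.0569), Syngr1 without replicate 3, 4 or 6 (0.0504 to 0.0671), Pclo without replicate 3 (0.0547) or 4 (0.0567) and Syt2 without replicate 4 (0.0563). In the table of single transcripts 7 of the 14 calls remained, without Stxbp5, Synpr, Syngr2, Syt2, Pclo, Stx3 and Syt7 (limma adjusted p between 0.0555 and 0.36). Stx3 also lost its call without a filter (0.0568) and under scaling to the total signal (0.0541). Other lists moved with the genotype too. Of the motoneuron markers, 2 of 7 were lower in DKO (Prph and Slc18a3) and 5 did not pass. Of the cycling markers, 3 of 5 were lower (Top2a, Aurkb and Mcm2). Also lower were 1 of 8 neural progenitor markers (Vim), 1 of 7 neuron markers (Tubb3, from 39730 to 23030), 1 of 5 V2a markers (Lhx3) and 1 of 4 sensory neuron markers (Runx1). No gene of any marker list was higher. In DKO, Top2a (1.502 and 4.311), Aurkb (0 and 0) and Runx1 (1.885 and 4.036) were near the limit of detection. The part of these lists in the results for the release genes was not tested.

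Both miR-218 genes give the same mature RNA (RefSeq, GRCm38.p6, plus strands), at chr5:48223966-48223986 (Mir218-1) and chr11:35616840-35616860 (Mir218-2). It is shown because the sites below are matches to its seed, which is in capitals.
miR-218: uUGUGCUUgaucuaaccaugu

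Annotated 3′ UTRs were searched on the sense strand for AAGCACAA (8mer), AAGCACA (7mer-m8) and AGCACAA (7mer-A1), with each gene counted in its strongest class, since the 8mer contains both 7mers. Of 78 release genes with a UTR, 7 had an 8mer (8.97%, against 3.71% of 20587 gene entries), 16 a 7mer-m8 (20.5% against 9.16%) and 5 a 7mer-A1 (6.41% against 4.56%). In all 28, or 35.9%, held a match, against 17.4% of all entries. UTR length differed too: the longest UTRs of the tested release genes had a median of 2836 bases with a match and 1575 without. Among all tested genes these medians were 2401 with a match and 834 without. Matches were found for 7 of the 8 genes that rose in DKO: an 8mer in Syt13, Sv2a, Syngr1 and Pclo, a 7mer-m8 in Stx3 and a 7mer-A1 in Stxbp5 and Synpr. The eighth, Syt7, had none, but its listed transcripts gave no UTR, and the UTRs searched were those of other transcripts with its symbol. Of the 6 genes that fell, Syt2 had a 7mer-m8 and the other 5 had none. These are the sites of the genes that passed (for each gene its strongest, GENCODE M21, GRCm38, the match in capitals and read along the messenger RNA).
Syt13 (chr2:92955629-92955636, plus strand): attccacataaAAGCACAAaaagtcgcatg
Sv2a (chr3:96194892-96194899, plus strand): agcaggtccgaAAGCACAAggagctggggc
Syngr1 (chr15:80118708-80118715, plus strand): ttttccctgtcAAGCACAAaagaaggtctg
Pclo (chr5:14794393-14794400, plus strand): acaggaattatAAGCACAAgggactgccag
Stx3 (chr19:11775677-11775683, minus strand): agctcccaaacAAGCACAccatgttatct
Stxbp5 (chr10:9760784-9760790, minus strand): acttctttcccAGCACAAtcatgcactgt
Synpr (chr14:13615273-13615279, plus strand): gaaagcagtttAGCACAAaataggctgtc
Syt2 (chr1:134748047-134748053, plus strand): aacaacatggcAAGCACAttctgtttctt

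The 8mers of Rab3b and Rims1, which did not pass, are shown because the same 8 bases stood beside smaller differences. Rab3b carried 2 of them, yet its signal in DKO (189.6 and 221.3) lay within its WT range of 149.2 to 231.6 (log2 0.09, 95% interval -0.29 to 0.46).
Rab3b, first site (chr4:108941428-108941435, plus strand): cagccatctaaAAGCACAAtgaccagaagg
Rab3b, second site (chr4:108942516-108942523, plus strand): ctctttgatttAAGCACAAgaatcatggcc
Rims1 (chr1:22287156-22287163, minus strand): aaggtcaatgcAAGCACAAagcttgatttt

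Of the 7 release genes with an 8mer, 4 were higher in DKO, 0 lower and 3 did not pass, and their median difference was 0.67. Among all 628 tested genes with an 8mer, 19.1% were higher and 0.955% lower, with a median of 0.32. The 16 release genes with a 7mer-m8 had 1 higher, 1 lower and a median of 0.21, beside 8.59% higher, 3.1% lower and a median of 0.12 for all genes of that class. The 5 with a 7mer-A1 had 2 higher, 0 lower and a median of 0.07, beside 5.56%, 3.1% and 0.08. Of the 45 without a match 1 was higher, 5 were lower and the median was -0.07. All 11988 genes without a match had 1.53% higher, 5.7% lower and a median of -0.05. A match is a description of the sequence only.

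**Figure D3:**
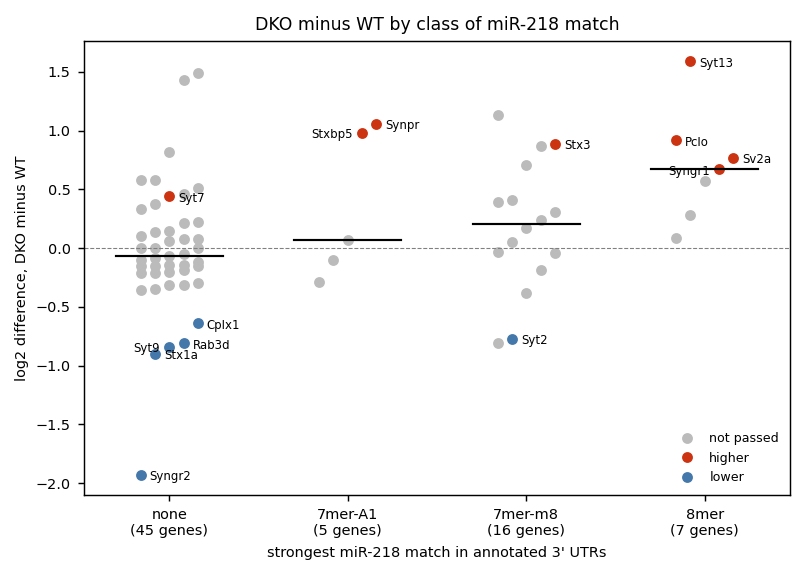
Difference between DKO and WT motoneurons (log2 scale, vertical axis) of the 73 tested release genes with an annotated 3′ UTR, by the strongest miR-218 match in it (horizontal axis). Each point is a gene, red where higher, blue where lower and grey where it did not pass, and each line is the median of the class, which runs from -0.07 without a match to 0.67 with an 8mer.

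Isoforms of a gene can differ in whether they carry a match. For Syngr1 the table holds an isoform with a UTR of 3425 bases that contains the 8mer and another with a UTR of 183 bases that contains no match. The long form stood at 218.3, 167.1, 199.9, 182.3, 260.6 and 197.1 in WT replicates 1 to 6 and at 354.7 and 386.4 in DKO, so the groups were far apart. The short form had 50.86, 25.82, 78.11, 52.83, 64.96 and 50.97 in WT and 47.89 and 25.96 in DKO, within its WT range. In the progenitors the order was the reverse, with the short form at 140.1 and 277.4 in pMN and NP and the long form at 15.41 and 61.08. These isoforms were chosen after their values were seen, and isoform signals are estimates that split reads shared by both forms. For Pclo, the isoform with the 8mer had 85.48 to 178.9 in WT and 209.9 and 189.2 in DKO. The other isoform, whose different UTR holds 7mer-m8 matches, had 14.58 to 35.31 in WT and 64.24 and 94.37 in DKO. For Stx3 the summed signal of the forms without a match stood higher in DKO, but the 2 DKO libraries split between isoforms differently. In DKO replicates 1 and 2, 1 form without a match had 53.68 and 3.368, and 1 with a match 0.8513 and 44.79. Which forms rose therefore cannot be told from these values. The 2 isoforms with the 7mer-m8 summed to 49.72, 41.41, 22.08, 33.88, 31.17 and 11.73 in WT and to 12.09 and 44.79 in DKO, within that range. The 2 without a match summed to 28.26, 22.16, 21.70, 8.097, 20.58 and 44.75 in WT and to 92.80 and 55.32 in DKO, above every WT value.

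The comparison of WT motoneurons with V1, V2a and V3 interneurons asks which release genes mark motoneurons among neurons of the same stage. Motoneurons had more of many release genes. The 12 largest differences were those of Stx11, Syt2, Sv2c, Rab3d, Cplx1, Stx1a, Syt9, Syngr2, Cplx2, Syngr3, Syt17 and Syn3, whose means were all at least 2-fold higher. Interneurons had more of 8 genes, among them Synpr, Sv2a and Pclo. Of 75 genes tested with limma, 31 were higher in motoneurons, 8 lower and 36 did not pass, against 17.7% (2921) higher and 15.2% (2498) lower among all 16486 genes tested. Scaling to the total signal gave 27 higher and 12 lower release genes, beside 2017 and 3915 of all genes. The groups did not overlap for 36 of the 75, and for 33.1% of all genes. The median difference was 0.44, against -0.04 over all genes. By role, 11 of 26 SNAREs were higher and 4 lower, 6 of 16 synaptotagmins higher and 0 lower, 9 of 15 vesicle genes higher and 2 lower, but 2 of 10 priming and active-zone genes higher and 1 lower.

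**Figure D4:**
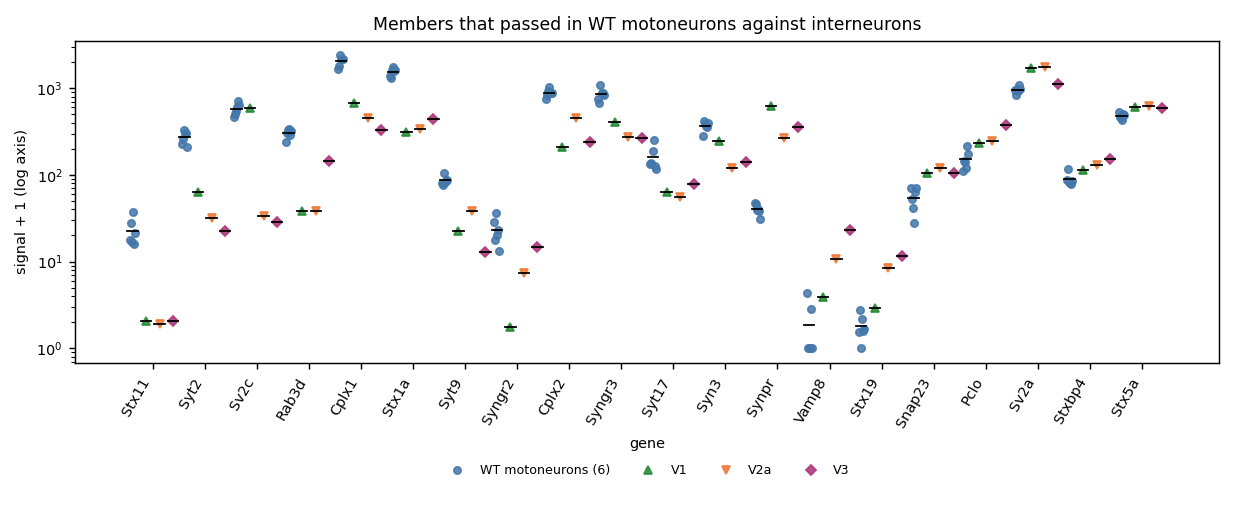
Signal + 1 (log axis) of the 12 release genes with the largest positive differences and the 8 lower ones that passed between WT motoneurons and interneurons, with 1 point per library (circles, 6 WT motoneuron libraries; triangles and diamonds, 1 library each of V1, V2a and V3) and a bar at each mean or single value. Stx11 to Syn3 are higher in motoneurons, with V1 at the motoneuron level for Sv2c, and Synpr to Stx5a are lower.

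Of the SNAREs, Stx1a was 309.6, 334.6 and 444.9 in V1, V2a and V3, all far below the WT motoneuron minimum of 1310 (log2 2.09, SE 0.13, limma adjusted p = 4.1e-06). Stx11, a syntaxin best known from granule release by lymphocytes, was 1.052, 0.9066 and 1.072 in the interneurons, near the limit of detection, and 14.93 to 36.06 in motoneurons (log2 3.43, SE 0.33, limma adjusted p = 5.8e-05). Snap25 was 1655, 1833 and 1535 against 2512 to 4115 (log2 0.84, SE 0.15, limma adjusted p = 0.00223). Snap23, the widely expressed relative of Snap25, was lower in motoneurons, at 26.73 to 69.34 against 105.4, 118.3 and 104.6 (log2 -1.10, SE 0.29, limma adjusted p = 0.0152). Vamp8 and Stx19 were also lower but scarce, with Vamp8 listed at 0 in 4 of 6 WT libraries and at 2.872, 9.673 and 21.95 in V1, V2a and V3. Stx5a, a Golgi syntaxin, was lower by a small step of 0.35 (SE 0.09, limma adjusted p = 0.0145).

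The complexins Cplx1 and Cplx2 were higher in motoneurons. Cplx1 was 666.8, 458.3 and 329.6 in V1, V2a and V3 against at least 1666 in every WT library (log2 2.14, SE 0.19, limma adjusted p = 4.0e-05), and Cplx2 was 207.5, 452.3 and 236.7 against at least 756.7 (log2 1.64, SE 0.21, limma adjusted p = 3.2e-04). Stxbp4, which binds the syntaxin Stx4, was lower in motoneurons by 0.58 (SE 0.16, limma adjusted p = 0.0209).

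Among calcium sensors the motoneuron libraries differed in Syt2. Its signal was 62.34, 31.11 and 21.74 in V1, V2a and V3 against 206.9 to 326.5, a 7.037-fold difference of means (log2 2.90, SE 0.28, limma adjusted p = 5.9e-05). Syt9 was 21.59, 37.57 and 11.76 against 76.39 to 103.7 (log2 1.95, SE 0.29, limma adjusted p = 7.9e-04), and Syt17 was 62.82, 55.08 and 77.55 against at least 117.3 (log2 1.23, SE 0.24, limma adjusted p = 0.00383). Syt1 did not pass, with 786.6, 1401 and 658.3 on either side of its motoneuron range (log2 0.05, 95% interval -0.39 to 0.49). Syt2 was thus 18.79% to 26.80% of the summed Syt1 and Syt2 signal in motoneurons and 2.172% to 7.343% in interneurons. Pclo was 231.4, 242.0 and 371.4 in the interneurons, all above the highest WT value of 214.2 (log2 -0.90, SE 0.22, limma adjusted p = 0.012).

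On the vesicle, Synpr had the largest step, from 615.5, 267.6 and 352.2 in V1, V2a and V3 to 30.29 to 46.78 in motoneurons, 10.42-fold lower (log2 -3.27, SE 0.25, limma adjusted p = 1.2e-05). Sv2a was 1715, 1746 and 1114, above the motoneuron maximum of 1089 (log2 -0.64, SE 0.14, limma adjusted p = 0.00743). Sv2c was called higher in motoneurons (log2 2.79, SE 0.76, limma adjusted p = 0.0183), but V1 at 595.1 lay within the motoneuron range of 466.7 to 707.6, and V2a and V3 at 32.95 and 27.33 made the difference. Rab3d was 37.07, 37.07 and 142.5 against at least 241.3 (log2 2.35, SE 0.36, limma adjusted p = 9.1e-04). Syngr3 was 411.4, 270.0 and 267.8 against at least 676.7 (log2 1.44, SE 0.17, limma adjusted p = 2.1e-04), and Syn3, the synapsin of early neurons, 247.8, 119.2 and 138.5 against at least 278.6 (log2 1.18, SE 0.21, limma adjusted p = 0.00225). Syngr2 was called too (log2 1.94, limma adjusted p = 0.026), with V3 at 13.59 inside its motoneuron range. Snap91 was 1252, 1103 and 1033 against at least 1303 (log2 0.45, SE 0.10, limma adjusted p = 0.00785).

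Single interneuron libraries decided some of these calls. Without V1, Syngr2 did not pass (limma adjusted p = 0.0718). Without V2a, Sv2c (0.0837), Stx19 (0.059), Snap23 (0.0564), Stxbp4 (0.0628) and Stx5a (0.0618) did not pass, and without V3, Sv2c (0.0751), Vamp8 (0.0544), Stx19 (0.063), Pclo (0.0523) and Stxbp4 (0.0806) did not. The call of Syngr2 was also lost without WT replicate 3 (0.051). With WT replicates 2, 3 and 4 alone 31 of the 39 calls remained and with replicates 1, 5 and 6 alone 27, which left out, among others, Pclo (0.103), Sv2a (0.067), Vamp8 (0.111) and Snap91. Under scaling to the total signal, which moved the median of all genes to -0.22, 35 remained and Vamp1, Vamp2, Rab3a and Snap47 lost theirs. In the table of single transcripts Syngr2 (0.056), Stx11 (0.324), Stx5a (0.693) and Snap23 (0.87) were among the 6 that did not pass.

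Both comparisons use the same WT libraries, so their differences are not independent and are only set side by side here. Mean signals in WT motoneurons, DKO motoneurons and interneurons were 1538, 818.4 and 363.0 for Stx1a, 2070, 1321 and 484.9 for Cplx1, 270.2, 157.3 and 38.40 for Syt2, 303.2, 171.2 and 72.21 for Rab3d, 85.48, 47.17 and 23.64 for Syt9, and 22.12, 4.993 and 6.914 for Syngr2. In the same order they were 39.53, 84.33 and 411.7 for Synpr, 959.5, 1633 and 1525 for Sv2a, and 150.7, 278.9 and 281.6 for Pclo. The other 5 genes called in DKO did not pass against interneurons. Their means were 69.88, 207.3 and 178.3 for Syt13, where V1 at 364.7 carried the last, 55.92, 102.5 and 61.59 for Stx3, 258.1, 407.5 and 271.1 for Syngr1, 89.80, 175.9 and 130.1 for Stxbp5, and 309.3, 419.4 and 401.1 for Syt7. For the first 5 genes the DKO mean lay between the other means. For Pclo it lay beside the interneuron mean, for Synpr it stayed far below it, and for Stx3 and Syngr1 the interneuron mean was close to the WT mean. The single libraries behind these last means lay far apart. Stx3 was 120.5, 36.64 and 27.59 in V1, V2a and V3, and Syngr1 was 404.7, 251.9 and 156.8, so V1 was near or above the DKO mean for both.

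The 3 interneuron types differed among themselves, which with 1 library each has no replicate check. V1 stood apart through vesicle protein SV2. Sv2b was 179.4 in V1, 8.678 in V2a and 3.246 in V3, and Sv2c 595.1, 32.95 and 27.33. Stxbp6, for the syntaxin-binding protein amisyn, was 93.17, 12.05 and 19.68, and Syt13 364.7, 83.10 and 87.10. V1 was lowest for Syt4 (408.8 against 797.1 and 1268), a synaptotagmin of dense-core vesicles, and low for Vamp8, Rab3d and Stx2. V2a was highest for Syt1 (1401 against 786.6 and 658.3), Rab3c (3057 against 1640 and 1574), Cplx2 and Syt9. V3 was highest for Rab3d (142.5 against 37.07 in each of the others), Syt4, Vamp8 and Stx2 (108.8 against 40.73 and 66.96). It was lowest for Syt6 (16.58 against 161.4 and 85.79) and Unc13c (1.993 against 16.77 and 11.56), the Munc13-3 gene. Of 69 release genes with a mean of at least 10, 12 were over 2-fold higher in V1 than the mean of the other types and 4 under 0.5 of it. V2a had 2 and 6, and V3 had 4 and 13. Among 13185 genes at that level these shares were 4.21% and 7.74% in V1, 1.64% and 4.28% in V2a, and 6.74% and 4.61% in V3. Summed blood markers were 5179 in V2a and 117.4 and 356.3 in V1 and V3, and summed mesenchyme markers 532.8 in V3 and 10.02 and 139.4 in V1 and V2a. Their part in these differences was not tested.

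The comparison of WT motoneurons with the mES-derived progenitors sets neurons against cultured cells with low signals of neuron markers, which also had pluripotency markers. Embryonic tissue and cultured stem cells differ at the same time, and these cannot be told apart from the step to a neuron. Most release genes were higher in motoneurons, led by Rab3c, Snap25, Syt4 and Syt1, whereas Vamp3, Vamp8, Snap23, Stx3, Stx4a, Stxbp2, Stxbp6, Syngr2 and Syngr4 were higher in progenitors. Of 75 genes tested with limma, 49 were higher in motoneurons, 9 lower and 17 did not pass, against 30.0% (5137) higher and 36.2% (6204) lower among all 17134 genes. Scaling to the total signal, which moved the median of all genes to 0.16, gave 52 and 8 release genes and 6007 and 5060 of all genes. The groups did not overlap for 58 of the 75, and for 66.1% of all genes. The median difference was 2.53 on the log2 scale, against -0.12 over all genes, and 57 of the 58 calls were at least 2-fold. By role, 13 of 16 vesicle genes, 9 of 10 priming and active-zone genes, 11 of 16 synaptotagmins and 11 of 25 SNAREs were higher.

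**Figure D5:**
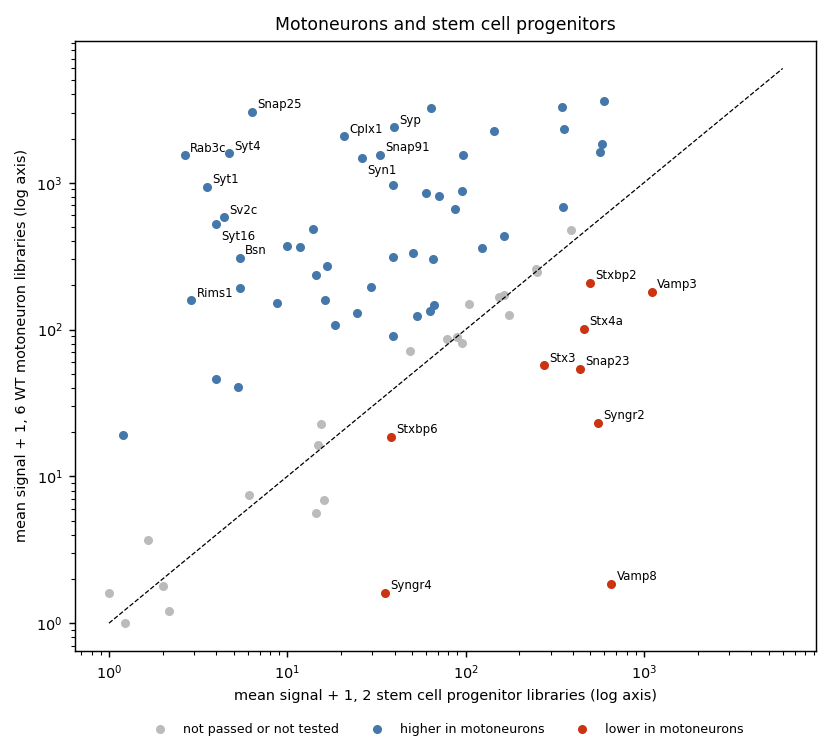
Mean signal + 1 of each release gene in the 6 WT motoneuron libraries (vertical, log axis) against the mean of the 2 mES progenitor libraries (horizontal, log axis), with the line of equality dashed. Blue points passed as higher in motoneurons and red points as lower, and the named genes are those with the largest differences.

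Of SNAREs and regulators, Snap25 rose from 4.189 and 6.456 in pMN and NP to 2512 to 4115 in motoneurons (log2 8.91, SE 0.21, limma adjusted p = 4.6e-10). Snap23 went the other way, from 379.5 and 496.3 to 26.73 to 69.34 (log2 -3.08, SE 0.35, limma adjusted p = 2.1e-05). Snap23 was thus 98.72% and 98.91% of the summed signal of both in the progenitors and 0.8651% to 2.686% in WT motoneurons. A like exchange was seen among v-SNAREs. Vamp3 (cellubrevin), an endosomal v-SNARE, was 1126 and 1079 in progenitors against 154.4 to 201.8 (log2 -2.62, SE 0.14, limma adjusted p = 7.8e-08), and Vamp8 (endobrevin) 475.4 and 834.4 against 0 in 4 of 6 WT libraries and at most 3.360 (log2 -8.70, limma adjusted p = 8.5e-07). Vamp2 was 15.49% and 17.11% of the summed Vamp1, Vamp2, Vamp3 and Vamp8 signal in progenitors and 90.06% to 93.47% in motoneurons. Stx3 (165.8 and 382.3) and Stx4a (282.9 and 632.9), plasma membrane syntaxins of other cells, and Stxbp2 (447.6 and 546.9), a syntaxin partner, were also lower in motoneurons, by 2.18, 2.09 and 1.34 on the log2 scale (limma adjusted p = 1.8e-04, 7.4e-05 and 0.00459). The call of Stxbp2 was lost without NP (0.0781). Stxbp6 passed barely (log2 -1.12, limma adjusted p = 0.0362) and lost its call without either progenitor library (0.214 without pMN, 0.0897 without NP) or without WT replicate 1 (0.0502), 2 (0.062) or 3 (0.0503). Cplx1 was 33.87 in pMN and 5.507 in NP and rose to 1666 and more (log2 7.09, SE 0.47, limma adjusted p = 3.8e-07).

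Of the 16 synaptotagmins tested, 11 were higher in motoneurons. Syt1, Syt4 and Syt16 were close to the limit of detection in progenitors, whereas Syt7 had signals of 46.20 and 30.35 there, Syt2 of 23.36 and 7.843 and Syt6 of 107.2 and 23.53. Syt1 was 2.217 and 2.891 (log2 8.04, SE 0.16, limma adjusted p = 2.7e-10), Syt4 3.724 and 3.713 (log2 8.37, SE 0.19, adjusted p = 4.3e-10) and Syt16, a synaptotagmin that does not bind calcium, 3.879 and 2.083 (log2 7.06, SE 0.21, adjusted p = 1.5e-09). Against these stood Syt9, at 77.40 in both progenitor libraries and 76.39 to 103.7 in motoneurons, which did not pass (log2 0.13, 95% interval -0.26 to 0.53). Of the active zone, Bsn was 5.621 and 3.232 (log2 5.83, SE 0.27, limma adjusted p = 3.3e-08) and Rims1 2.099 and 1.675 (log2 5.77, SE 0.22, limma adjusted p = 9.0e-09), with all 6 WT libraries above 100 for each.

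On the vesicle, Rab3c had the largest step of all 75 genes, from 2.374 and 0.9468 to 1204 to 2030 (log2 9.21, SE 0.23, limma adjusted p = 6.4e-10). Sv2c was 3.037 and 3.785 (log2 7.03), Syp 48.45 and 28.86 (log2 5.95) and Syn1 24.49 and 25.75 (log2 5.82), with limma adjusted p = 9.0e-10, 2.7e-09 and 9.1e-10. Snap91 was 16.60 and 47.20 (log2 5.72, SE 0.29, limma adjusted p = 6.2e-08). Syngr2 and Syngr4 went the other way. Syngr2 was 532.7 and 564.0 (log2 -4.64, SE 0.35, limma adjusted p = 9.6e-07), and Syngr4 28.46 and 40.07 with WT signals of 0 to 2.055 (log2 -4.57, SE 0.50, limma adjusted p = 1.7e-05). Within the Rab3 family, Rab3a was 37.87% and 43.05% of the summed signal in progenitors and Rab3c 0.4849% and 1.990%, against 25.03% to 36.87% for Rab3c in motoneurons. Summed markers of neurons were 1328 and 803.8 in pMN and NP and at least 60220 in every motoneuron library. Those of pluripotent cells were 1612 and 1937, against at most 18.57 in every other library. Neural progenitor markers summed to 13220 in pMN, 3032 in NP and 4173 to 5750 in WT motoneurons, where Vim alone had 3601 to 5184.

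Syn1 is known as a gene that the repressor REST holds silent outside neurons through an RE1 element in its promoter. In RefSeq windows from 250 bases before to 50 after each gene start (60 release genes matched, 77 promoters), the motif TTCAGCACCNNGGACAGCGCC was searched on both strands with up to 3 mismatches. It was found in 1 release promoter, that of Syn1, and in 24 of all 32851 promoters (0.0731%). Whether REST has a part in the Syn1 difference was not tested. The match has 2 mismatches. It is shown because Syn1 is listed above at a low signal in progenitors and a high one in every neuron library.
Syn1 (GRCm38.p6, chrX:20921130-20921150, minus strand, motif in capitals): cggaTTCAGCACCGCGGTCAGAGCCttcgc

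Other genes of the pathway were taken from a list of priming, docking and SNARE disassembly factors (43 entries) and of vesicle retrieval (22 entries). In DKO against WT motoneurons 2 of 41 tested genes of the first were higher and 1 lower, and 3 of 22 of the second were higher and 2 lower (limma), beside 3.22% and 4.77% of all genes. Esyt1, a tether between endoplasmic reticulum and plasma membrane, ranged from 800.0 to 1032 in WT and was 361.5 and 295.0 in DKO, a fall of 1.45 on the log2 scale (SE 0.13, limma adjusted p = 2.9e-04). Vat1, a vesicle-associated oxidoreductase-like protein, was 1901 and 1960 against 910.1 to 1233 (log2 0.79, SE 0.12, limma adjusted p = 0.00523). Synj1, the phosphatase synaptojanin that uncoats retrieved vesicles, was 635.2 and 715.7 against 408.9 to 466.6 (log2 0.62, SE 0.10, limma adjusted p = 0.0073). Ston2, for stonin 2, an adaptor that sorts synaptotagmin during retrieval, was 63.60 and 49.87 against 99.23 to 165.2 (log2 -1.09, SE 0.21, limma adjusted p = 0.0126).

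Against interneurons, 14 of 41 and 9 of 22 genes of these lists were higher in motoneurons and 4 and 2 lower, beside 17.7% and 15.2% of all genes. Ston2 was 13.34, 14.93 and 14.76 in V1, V2a and V3 against at least 99.23 (limma adjusted p = 4.5e-06), Mctp1, a calcium-binding C2 protein, 1.579, 4.811 and 2.682 against 16.55 to 26.60 (log2 2.51, adjusted p = 2.6e-04), and Napb, the neuronal form of the SNARE-disassembly factor SNAP, 485.0, 455.9 and 423.6 against at least 777.6 (log2 1.02, adjusted p = 2.8e-04). Sh3gl3, an endophilin of vesicle retrieval, was 277.8, 269.2 and 277.9 against at least 417.1 (log2 0.75, adjusted p = 2.8e-04). Against progenitors, 29 of 42 and 15 of 22 were higher and 8 and 2 lower, beside 30.0% and 36.2% of all genes. The lowest p-values were those of Ppfia2 (liprin-alpha-2), Apba1 (Mint1), Cadps and Rph3a. Cadps, the priming factor CAPS, was 15.32 and 8.667 in pMN and NP against 1055 to 1342 (log2 6.65, SE 0.19, limma adjusted p = 1.4e-09), and Ppfia2 was 0.1254 in pMN, listed at 0 in NP and 340.2 to 537.4 in motoneurons.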

How the data were processed

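The 13 libraries held polyadenylated RNA, per the labels' protocols, and the kit named there keeps no strand, so overlapping genes on opposite strands cannot be told apart. The authors deposited a signal for each gene (23523 entries) and each transcript (31702 entries) on RefSeq models, per the file headers. The values show a length-scaled abundance that the authors had scaled between libraries, not counts. The submitters' processing notes name DESeq, bedtools, mm9 and mm10 without roles, and the aligner is not given in the sources used here. Floor plate was not analysed here. Of the members, 2 are counted but not reported here by name. Of the forms of test planned, that for normalized values was used, since the unit is a signal. Depth is approximate: after multiplication by transcript length, 77.7% to 79.4% of low values came within 0.1 of a multiple of the worth of 1 read (20% by chance).

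Differences were tested with limma 3.58.1 (R 4.3.3, limma-trend) on log2(signal + 1), keeping genes whose mean over the compared libraries reached 1, two-sided, with Benjamini-Hochberg adjustment over all genes tested and a threshold of 0.05. Log2 differences are on that scale, which understates changes of low genes, whereas folds are ratios of mean signals. Only the groups compared entered each fit, with V1, V2a and V3 as 3 members of 1 class and pMN and NP as 2. The members and lists were chosen with earlier results of these data known. Genes named were every member that passed in DKO, the 12 largest differences per direction in the other comparisons, the highest per role, 4 per direction and interneuron type, and the 4 other pathway genes with the lowest p. Core release genes that did not pass were added after their values were seen. UTRs came from coding transcripts of GENCODE M21. The fit was tested on simulated data. Alternatives were other pseudocounts, filters, scalings and weights, subsets of WT libraries, the transcript table, a replicate block and leaving out each library.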

Additional observations from a re-analysis of the deposited data

Results flagged for a closer look

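Among the 69 release genes whose WT motoneuron mean reached 10, 6 had a WT library whose gap to the nearest of the other 5 took up more of the whole range than the 95% critical value of Dixon's test for 6 libraries allows. Chance flags about 1 in 20 groups. WT replicate 2 was the high library for Syt4 (2247, next 1578), Vamp7 (264.7, next 168.6), Stx17 (168.2, next 130.5) and Stxbp4 (116.9, next 86.28). WT replicate 3 was high for Syt9 (103.7, next 85.26), and WT replicate 1 was low for Syt16 (406.7, next 515.0). Of these 6 genes, Syt9 passed in DKO against WT motoneurons, and it passed with each WT library left out.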

How the results depend on the processing

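No named release gene that passed changed sign under any alternative run, and those that did not pass were not followed. In DKO against WT motoneurons (8 release genes higher, 6 lower), leaving out each library in turn gave 0 to 12 higher and 0 to 6 lower. WT replicates 2, 3 and 4 alone gave 14 higher and 10 lower, and replicates 1, 5 and 6 alone gave 14 higher. The transcript table gave 3 higher. The deviations of WT and DKO libraries had correlations between -0.09 and 0.09 over all pairs. With 2 DKO libraries these deviations mirror each other, so such values cannot settle whether same-numbered libraries share more than a number. With the replicate number as a block, 3 were higher and 0 lower (limma, 22 at an unadjusted p under 0.05), with Pclo and Syt13 kept and Rims3 added, and 120 and 94 genes of all were called against 523 and 776. Only replicates 1 and 2 occur in both groups, so in that fit the difference rests on 2 WT and 2 DKO libraries. WT replicates 3 to 6, each alone in its block, add nothing to it. The smaller number of calls is therefore no measure of what same-numbered libraries share. Leaving out a DKO library leaves 1, whose spread is taken to equal that within WT. This gave 27 and 70 genes of all without replicate 1 and 29 and 112 without replicate 2. The counts were 797 and 1235 without WT replicate 2 and 331 and 496 without WT replicate 4. The count over all genes also moved to 242 and 454 in the transcript table, to 1282 and 1170 with WT replicates 2, 3 and 4 and to 985 and 1330 with 1, 5 and 6. In motoneurons against interneurons (31 higher, 8 lower), leaving out libraries gave 26 to 36 higher and 4 to 8 lower, and WT replicates 1, 5 and 6 alone gave 5 lower. Genes lower over all moved from 2498 to 3915 under total scaling, 1553 with WT replicates 1, 5 and 6 alone and 1483 without V2a. Against progenitors (49 higher, 9 lower), leaving out libraries gave 49 to 51 and 7 to 9. Depth limits genes with a signal below about 4, such as Cplx3, Cplx4 and Syt8.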
